A study of Homo sapiens with 15 samples.

Results

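The cancer testis antigen families are gene families that are read in male germ cells and silent in most adult tissues, and that many tumours switch back on. Here they were taken by name: every gene of the table whose symbol begins with MAGEA, MAGEB, MAGEC, GAGE, PAGE, XAGE, SSX, CT45 or CTAG, at any level, which gave 96 of the 26443 genes with values. They were followed in LNCaP, an established human prostate cancer cell line labelled as wild type. All 15 libraries came from cells infected with lentivirus for several days: 3 with the vector pLKO, and 3 each with a hairpin against PALI1 (shPALI1), G9a (shG9a), JARID2 (shJarid2) or SUZ12 (shsuz12). The labels number the replicates but name no separate cultures, so the p-values below rest on the spread between the libraries alone, and that spread may be technical. Each target had 1 hairpin group, so the loss of the target and other effects of its hairpin cannot be told apart.

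SUZ12 is a core subunit of polycomb repressive complex PRC2, which methylates histone H3 at lysine K27, and JARID2 is an accessory subunit of that complex. G9a, encoded by EHMT2, methylates H3 at lysine K9. PALI1, made from the LCOR and C10orf12 locus, is an accessory factor that links PRC2 with G9a. In somatic cells the cancer testis genes are known to be held silent above all by DNA methylation of their promoters, with H3K9 and H3K27 methylation described at many of them. The proteins of the MAGE families share a domain that binds RING-type E3 ubiquitin ligases, and peptides of several of them are recognised by T cells. GAGE, PAGE and XAGE proteins are small and largely unstructured, SSX proteins are nuclear repressors known from the gene fusions of synovial sarcoma, and CTAG genes encode NY-ESO-1 and its relative LAGE-1.

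The prefixes also caught genes that are not cancer testis antigens of these families. SSX2IP, on chromosome 1, encodes a centrosome and adhesion protein that binds SSX2 and is broadly expressed, and 10 symbols begin with CTAGE, the family of the secretory export gene CTAGE5 on chromosome 14. These 11 genes were the only members placed off the X chromosome, and 74 members lay on it. Without them the families held 85 genes, and the counts below are given for both sets. MAGEA8-AS1, an antisense RNA, and MAGEA10-MAGEA5, a readthrough transcript, also matched and were kept.

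The upstream sequences of 6 of the genes that the results turn on are shown because the MAGE promoters are known to work through binding sites of ETS-type factors. They are RefSeq sequences of build GRCh38.p14, written 5′ to 3′ on the gene's strand and ending at or before the annotated start. Capitals mark each match to CCGGANG on either strand, the only motif searched. For MAGEA4 and MAGEA12, which have several annotated starts, the window of the start farthest upstream is shown. For MAGEA3 and PAGE1 the 200 bases farthest upstream are shown.
MAGEC1, chrX:141903644-141903893, plus strand: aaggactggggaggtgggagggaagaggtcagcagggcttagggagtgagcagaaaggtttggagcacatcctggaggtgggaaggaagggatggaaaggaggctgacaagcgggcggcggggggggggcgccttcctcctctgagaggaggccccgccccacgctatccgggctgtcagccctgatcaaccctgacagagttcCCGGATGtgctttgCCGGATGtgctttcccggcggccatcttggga
MAGEC2, chrX:142205291-142205540, minus strand: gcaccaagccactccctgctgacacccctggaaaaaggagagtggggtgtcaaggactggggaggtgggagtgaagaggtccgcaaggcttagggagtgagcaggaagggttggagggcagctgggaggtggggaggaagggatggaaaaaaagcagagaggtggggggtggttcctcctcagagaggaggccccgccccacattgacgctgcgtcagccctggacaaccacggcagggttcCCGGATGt
MAGEA4, chrX:151912224-151912473, plus strand: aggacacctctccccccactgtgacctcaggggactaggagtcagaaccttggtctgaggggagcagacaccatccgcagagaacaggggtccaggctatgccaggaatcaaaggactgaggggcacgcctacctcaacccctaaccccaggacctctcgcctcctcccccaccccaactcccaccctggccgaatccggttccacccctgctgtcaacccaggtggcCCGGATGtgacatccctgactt
MAGEA12, chrX:152733507-152733756, plus strand: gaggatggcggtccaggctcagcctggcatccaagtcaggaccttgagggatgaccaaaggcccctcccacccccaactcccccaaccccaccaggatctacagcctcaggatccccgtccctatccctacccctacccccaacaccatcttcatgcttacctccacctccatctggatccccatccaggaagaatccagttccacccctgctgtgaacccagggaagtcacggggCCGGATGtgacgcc
MAGEA3, chrX:152698544-152698743, plus strand: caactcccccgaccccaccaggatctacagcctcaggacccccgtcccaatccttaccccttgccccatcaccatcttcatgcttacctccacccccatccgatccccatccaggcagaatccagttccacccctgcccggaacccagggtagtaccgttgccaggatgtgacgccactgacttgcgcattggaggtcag
PAGE1, chrX:49696035-49696234, minus strand: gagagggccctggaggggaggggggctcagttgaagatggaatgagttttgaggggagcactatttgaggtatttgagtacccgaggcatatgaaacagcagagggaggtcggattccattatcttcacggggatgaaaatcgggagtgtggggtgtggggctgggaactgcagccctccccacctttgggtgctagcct
The RefSeq table matched 61 of the member genes, with 77 annotated starts, and had none for MAGEA10 or MAGEA1. The motif stood within 250 bases upstream of 13 of the 16 MAGEA starts (81.2%) and of 22 of the 77 member starts (28.6%), against 6341 of all 35116 starts in the table (18.1%). No listed start of a GAGE, PAGE or SSX gene had it, and CTAG1A, CTAG1B and CTAG2 matched no entry. MAGEC1 held 2 matches and MAGEC2 held 1, and the longest exact run of bases the 2 windows shared was 20. Such a run ends at any single differing base and no alignment was made, so it does not measure how alike the windows are. MAGEA3 and MAGEA6 are identical over all 250 bases, with 15 CpG dinucleotides each and no match. The longest exact run that MAGEA3 shares with MAGEA12 is 27 bases, which has the same limit as a measure of likeness. These are matches of letters and show no bound factor.

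Most of the family members were listed at 0. Of the 85 cancer testis genes, 51 were at 0 RPKM in all 15 libraries, and between 16 and 24 were above 0 in any 1 library. RPKM is a read number divided by the length of the gene model and by the size of the library. Only 11 of the 85, and 13 of all 96 members, reached 1 RPKM in at least 3 libraries, the minimum set for testing. Those 11 were 7 MAGEA genes (MAGEA1, MAGEA3, MAGEA4, MAGEA6, MAGEA8, MAGEA10 and MAGEA12), MAGEC1, MAGEC2, GAGE1 and PAGE1. No gene of the MAGEB, XAGE, SSX or CT45 families passed, and neither did CTAG1A, CTAG1B or CTAG2; the 2 others tested were SSX2IP and CTAGE5. In a gene model of 1 kb, the 3 reads that a listed 0 can hide correspond to 0.155 to 0.284 RPKM at these depths, counting error only.

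Many family members are near copies, and the handling of reads that map to several places is not given in the sources used here. Therefore, for each gene, the share of 50-base words that occur in no other GENCODE gene was counted. Of 14 members with no such word, 13 were at 0 in all libraries and the highest value of the other was 0.152 RPKM. Of 11 members with up to 10% of their words their own, 9 were at 0. Of 44 members with more than 50%, 10 were at 0 and 11 were tested. MAGEA2 (3.6% own words), MAGEA9 (6%), CTAG1A (9.7%) and CTAG1B (10.1%) were listed at 0 throughout, and reads dropped as ambiguous and silent genes cannot be told apart there. MAGEB1, MAGEB2, MAGEB3, MAGEB4, MAGEB10 and MAGEB16 were at 0 with between 97.8% and 100% own words. MAGEA3 (43.5%) and MAGEA6 (46.1%), the near-identical pair, are the tested members whose reads were most exposed to splitting. A further 11 members, all at 0, were matched to no GENCODE entry.

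**Figure D1:**
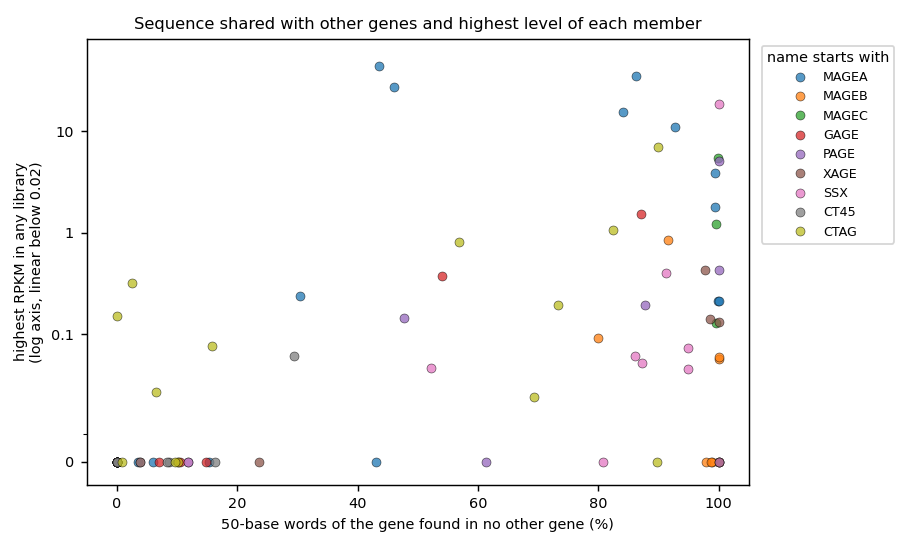
Each point is 1 of the 85 members with a GENCODE entry; the x axis gives the percentage of its 50-base words found in no other gene, the y axis its highest RPKM in any of the 15 libraries (log axis, linear below 0.02), and colours the name prefix. The members at the left edge lie at or near 0, and among the members above 1 RPKM only MAGEA3 (43.5%) and MAGEA6 (46.1%) lie below 50%.

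Depth, worked out from the size of the 1-read step in short RNA genes, was 10.56 to 19.36 M reads per library. Replicates of a group correlated at 0.975 to 0.992 over genes, and the lowest values belong to the pairs with replicate 3 of shJarid2, which stands apart from its group. The targets were lower in their own groups: C10orf12 stood at 23.8% and LCOR at 60% of pLKO in shPALI1, EHMT2 at 25.7% in shG9a, JARID2 at 18.3% in shJarid2 and SUZ12 at 12.5% in shsuz12. All 9 luminal prostate markers were expressed, at 21.1 RPKM or more. Immune markers reached at most 0.232 RPKM. In each of 4 other lists 1 gene stood above the rest: VWF (2.38 RPKM) among endothelial markers, LUM (1.4) among fibroblast markers, SYCP3 (7.21) among germ cell markers and AMH (3.19) among Sertoli and Leydig markers. The remaining genes of those lists reached at most 0.0956, 0.058, 0.167 and 0.0779 RPKM, in that order.

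Most of the family signal came from 3 MAGEA genes that lie in 1 stretch of the X chromosome. MAGEA3, MAGEA12 and MAGEA6 lie 31 kb and 28 kb apart (chrX:152698752-152702347, chrX:152733779-152737669 and chrX:152766136-152769747), and together they held 74.8% to 83.8% of the summed RPKM of the MAGEA genes in every library. In pLKO, MAGEA3 stood at 40.8 ± 2.9 RPKM, MAGEA12 at 30.4 ± 1.0 and MAGEA6 at 26.7 ± 0.56 (SD, n = 3). MAGEA4 (8.74 ± 0.39), MAGEA10 (7.24 ± 0.77) and MAGEA1 (3.62 ± 0.29) followed, and the lowest pLKO library of MAGEA4, at 8.29, lay above the highest of MAGEA10, at 8.08. PAGE1 (1.67 ± 0.35), GAGE1 (1.47 ± 0.064) and MAGEA8 (0.959 ± 0.31) overlapped in their pLKO libraries. The lowest of the tested genes were MAGEC2 (0.614 ± 0.097) and MAGEC1 (0.224 ± 0.061). The MAGEA sum lay between 115 and 122 RPKM in pLKO and between 96.1 and 104 in shsuz12, so those groups did not overlap. The ranges of the other hairpin groups overlapped that of pLKO. The RPKM sum over all genes was also lower in shsuz12 (250161 to 262666) than in pLKO (264926 to 293663), again without overlap. How much of the lower MAGEA sum goes with that was not tested.

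**Figure D2:**
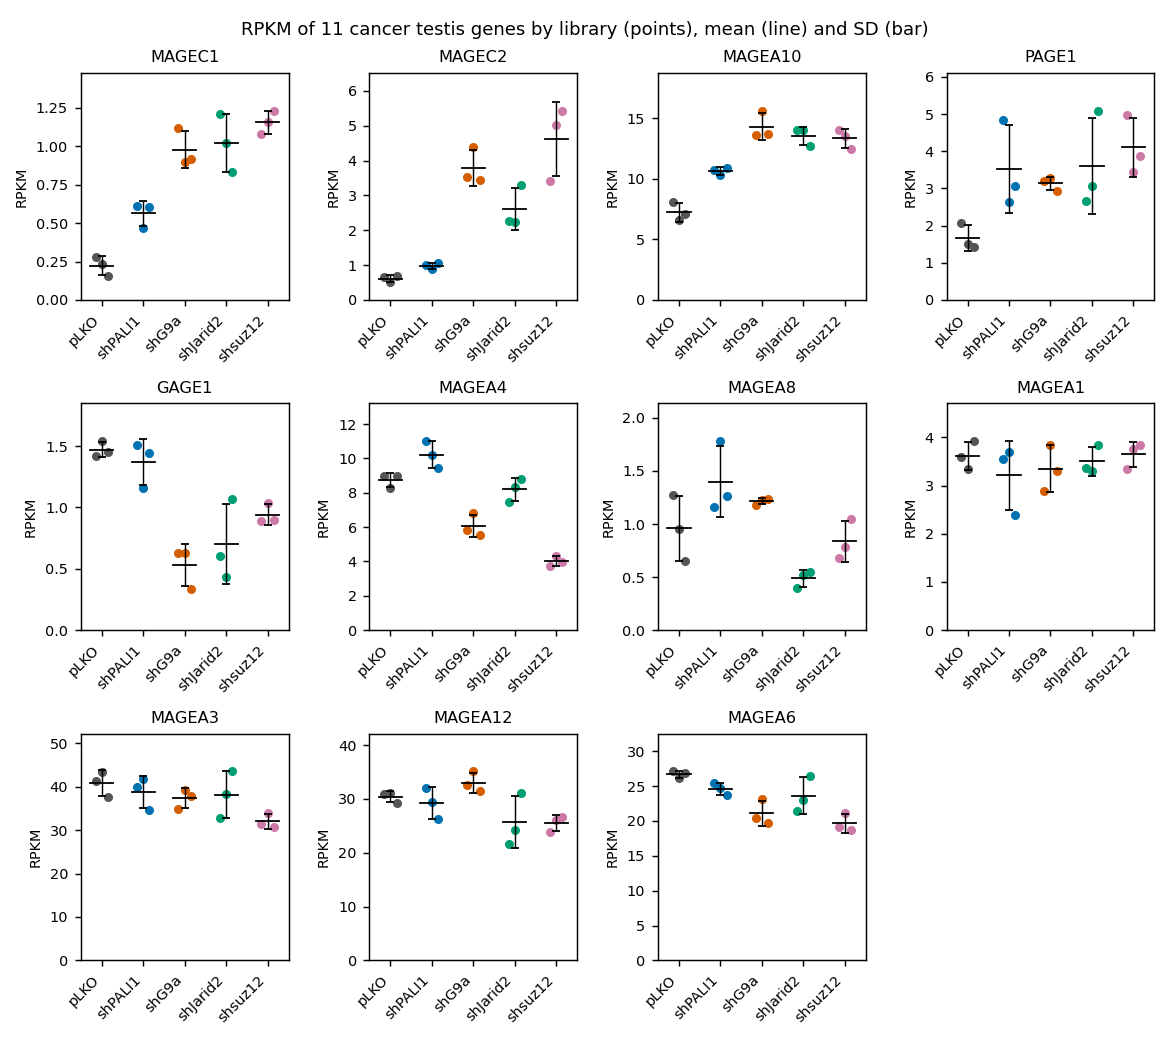
RPKM of the 11 tested cancer testis genes in each of the 15 libraries (points), with the group mean (line) and SD (bar); each panel has its own linear axis from 0. MAGEC1, MAGEC2, MAGEA10 and PAGE1 are lowest in pLKO, MAGEA4 and GAGE1 are lowest in hairpin groups, and MAGEA1 overlaps in all 5 groups.

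Each hairpin group was compared with pLKO to ask which of these genes changed when a PRC2 subunit, PALI1 or G9a was depleted. The same pLKO libraries serve all 4 comparisons, so the comparisons are not independent of each other. Differences are in log2(RPKM + 1), tested with limma over all 12715 genes that passed the minimum and called at a Benjamini-Hochberg adjusted p under 0.05; on this scale the differences of low genes come out smaller than the ratio of their RPKM values. In bulk RNA, fewer cells that express a gene and less RNA per cell cannot be told apart. In shPALI1, 3 of the 13 tested members were higher and none lower, where 16.5% of all tested genes were called higher and 25.1% lower. In shG9a, 4 were higher and 4 lower (all genes: 18.4% higher, 24.7% lower). In shJarid2, 4 were higher and 3 lower (all genes: 23.8% and 27.2%). In shsuz12, 4 were higher and 6 lower (all genes: 21.1% and 32.8%). Without SSX2IP and CTAGE5 the counts were 3 and 0, 4 and 3, 4 and 2, and 4 and 4 of 11. The median difference of the 13 members was 0.013, 0.115, -0.084 and -0.245 in these 4 comparisons, beside -0.052, -0.04, -0.038 and -0.078 over all genes tested. The split of all called genes moved with the scaling: higher genes were 42.7% of those called in shG9a but 58% with TPM, and 39.1% in shsuz12 but 53.8% with median ratio scaling and 53.3% with TPM. These scalings raised the median of all genes in shsuz12 by 0.108 and 0.109, which is small beside the differences of MAGEC2 and MAGEA4 there. In shsuz12, MAGEA3 and GAGE1 lost their calls with median ratio scaling, and GAGE1 and SSX2IP with TPM. MAGEC1 and MAGEC2 passed the minimum only through hairpin libraries, and GAGE1 through pLKO and shPALI1 with 1 library each of shJarid2 and shsuz12, and MAGEA8 through libraries of each group but shJarid2, so a difference was built into their being tested; without any minimum, each of their calls against pLKO remained.

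The members that rose were the same 4 in shG9a, shJarid2 and shsuz12: MAGEC1, MAGEC2, MAGEA10 and PAGE1. In shPALI1, MAGEC1, MAGEA10 and PAGE1 rose. In the other direction, GAGE1 was lower in shG9a, shJarid2 and shsuz12, MAGEA4 and MAGEA6 in shG9a and shsuz12, MAGEA8 in shJarid2, and MAGEA3 in shsuz12. MAGEA1 and MAGEA12 passed in none of the 4 comparisons.

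**Figure D3:**
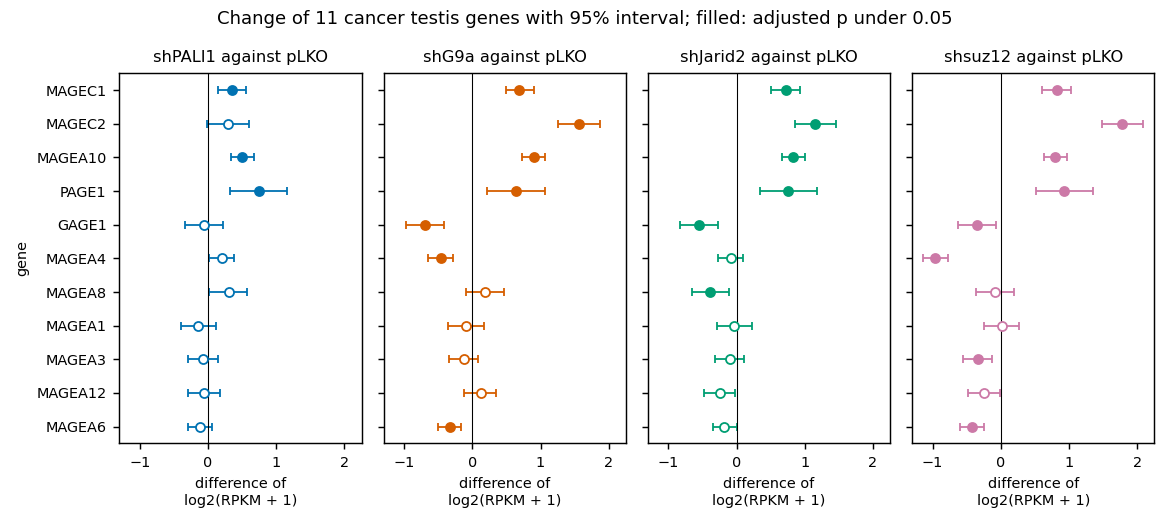
Difference of each hairpin group from pLKO in log2(RPKM + 1) for the 11 tested cancer testis genes, with its 95% interval from the limma fit; filled points have an adjusted p under 0.05. MAGEC1, MAGEA10 and PAGE1 lie to the right of 0 in all 4 panels, and MAGEC2 has the largest differences, 1.56 in shG9a and 1.78 in shsuz12.

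MAGEC2 (chrX:142202345-142205290, minus strand) encodes a MAGE protein known as a partner of the ligase TRIM28. Its values were 0.649, 0.504 and 0.688 RPKM in the pLKO libraries, 0.997, 0.875 and 1.06 in shPALI1, 3.54, 4.39 and 3.43 in shG9a, 2.28, 2.25 and 3.3 in shJarid2, and 3.42, 5.01 and 5.42 in shsuz12. Every hairpin library lay above every pLKO library, and the shPALI1 libraries lay below all those of the other 3 hairpins. Its mean was 6.16 times that of pLKO in shG9a (log2 difference 1.56, SE 0.14, adjusted p = 1.3e-06), 4.25 times in shJarid2 (1.15, adjusted p = 1.3e-05) and 7.52 times in shsuz12 (1.78, adjusted p = 2e-07). In shPALI1 the ratio was 1.59 and the difference of 0.29 missed the threshold (95% interval -0.01 to 0.60, adjusted p = 0.11), although it passed with a pseudocount of 0.1 (0.60, adjusted p = 0.0238). The values stand on about 16 to 130 reads per library.

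MAGEC1 (chrX:141903894-141909388, plus strand), whose protein carries a long run of repeats before its MAGE domain, lies 293 kb from MAGEC2. Its values were 0.281, 0.232 and 0.159 RPKM in pLKO, 0.614, 0.471 and 0.607 in shPALI1, 1.12, 0.898 and 0.92 in shG9a, 1.21, 1.02 and 0.836 in shJarid2, and 1.08, 1.16 and 1.23 in shsuz12. The 3 tiers, pLKO, shPALI1 and the remaining hairpins, did not overlap. The group means were 2.52, 4.37, 4.57 and 5.16 times that of pLKO in shPALI1, shG9a, shJarid2 and shsuz12, with log2 differences of 0.35, 0.69, 0.72 and 0.82 (SE 0.10) and adjusted p values of 0.0096, 6.1e-05, 2.6e-05 and 8.3e-06. The reads behind these values were few: 15, 16 and 8 in pLKO against 90, 68 and 64 in shsuz12. MAGEC3, the remaining MAGEC gene, reached at most 0.13 RPKM.

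MAGEA10 (chrX:152133310-152138578, minus strand), a source of T cell antigens in several tumours, gave the firmest values of the genes that rose, with about 230 to 740 reads per library. It stood at 8.08, 6.57 and 7.07 RPKM in pLKO, 10.7, 10.3 and 10.9 in shPALI1, 13.6, 15.6 and 13.7 in shG9a, 14.0, 14.0 and 12.7 in shJarid2, and 14.0, 13.5 and 12.5 in shsuz12. Again pLKO, shPALI1 and the other hairpins formed separate ranges. The ratios to pLKO were 1.47, 1.98, 1.87 and 1.84, with log2 differences of 0.50, 0.90, 0.83 and 0.80 (SE 0.08) and adjusted p values of 0.00018, 9.3e-07, 1.1e-06 and 1.5e-06. The readthrough transcript MAGEA10-MAGEA5 overlaps it on the same strand and reached at most 0.237 RPKM.

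PAGE1 (chrX:49687450-49695993, minus strand), a small protein of the GAGE-like group, rose under each hairpin. Its values were 2.07, 1.51 and 1.42 RPKM in pLKO, 4.85, 2.63 and 3.07 in shPALI1, 3.21, 3.27 and 2.94 in shG9a, 2.66, 3.07 and 5.08 in shJarid2, and 4.98, 3.45 and 3.88 in shsuz12. All hairpin libraries lay above all pLKO libraries, and the 4 hairpin groups overlapped, apart from shG9a and shsuz12. The ratios were 2.11, 1.88, 2.16 and 2.46, and the log2 differences 0.74, 0.64, 0.76 and 0.93 (SE 0.20; adjusted p = 0.0079, 0.017, 0.0049 and 0.0011). In shG9a the call was lost without replicate 2 (adjusted p = 0.0534) or replicate 3 (adjusted p = 0.0571) of pLKO, and the gene rests on 11 to 64 reads per library.

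GAGE1 (chrX:49589496-49608536, plus strand), 79 kb from PAGE1, moved the other way. It was at 1.42, 1.54 and 1.45 RPKM in pLKO, 1.51, 1.16 and 1.44 in shPALI1, 0.631, 0.628 and 0.333 in shG9a, 0.604, 0.433 and 1.07 in shJarid2, and 0.888, 1.04 and 0.899 in shsuz12. The libraries of shG9a, shJarid2 and shsuz12 all lay below those of pLKO, and those of shPALI1 overlapped them. Its mean was 0.362 of that in pLKO in shG9a (log2 difference -0.69, SE 0.13, adjusted p = 0.00067), 0.479 in shJarid2 (-0.55, adjusted p = 0.0026) and 0.641 in shsuz12 (-0.35, adjusted p = 0.036). The call in shsuz12 was lost when any 1 of the 6 libraries of the comparison was left out (adjusted p = 0.0508 to 0.0912). It was also lost with a pseudocount of 0.1 (adjusted p = 0.0839), median ratio scaling (0.0803), TPM (0.0669) and the replicate block (0.0529). GAGE1 is the single GAGE gene that reached 1 RPKM: 20 of the 22 GAGE genes were at 0, and its model overlaps that of GAGE2A, so reads of near-identical GAGE copies may be among its reads or missing from them.

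MAGEA4 (chrX:151912509-151925170, plus strand), whose protein binds the ligase RAD18, fell in shsuz12 and shG9a. It stood at 8.98, 8.29 and 8.95 RPKM in pLKO, 11, 10.2 and 9.43 in shPALI1, 5.86, 6.8 and 5.57 in shG9a, 7.47, 8.35 and 8.79 in shJarid2, and 3.72, 4.31 and 3.99 in shsuz12. The shsuz12 libraries were the lowest, those of shG9a next, and those of shPALI1 were all above pLKO. The mean fell to 0.459 of pLKO in shsuz12 (log2 difference -0.96, SE 0.08, adjusted p = 4.9e-07) and to 0.695 in shG9a (-0.46, adjusted p = 0.00054). In shJarid2 the difference was -0.08 (95% interval -0.27 to 0.10, adjusted p = 0.43). In shPALI1 it was 0.20 (95% interval 0.02 to 0.38, adjusted p = 0.069), which passed as higher with median ratio scaling (adjusted p = 0.0194), quantile normalization (0.0213) and TPM (0.0336). MAGEA4-AS1 overlaps MAGEA4 on the opposite strand, and whether the counting used strand is not given in the sources used here.

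MAGEA8 (chrX:149881141-149885835, plus strand) was the gene that fell in shJarid2 alone of the 4 comparisons. Its values were 1.27, 0.956 and 0.654 RPKM in pLKO, 1.16, 1.78 and 1.26 in shPALI1, 1.18, 1.23 and 1.24 in shG9a, 0.401, 0.518 and 0.544 in shJarid2, and 0.678, 0.782 and 1.05 in shsuz12. The shJarid2 libraries lay below all 12 others. The ratio to pLKO was 0.508 (log2 difference -0.39, SE 0.13, adjusted p = 0.022). That call was lost without replicate 1 (adjusted p = 0.103) or replicate 2 (0.0519) of pLKO, or without replicate 1 of shJarid2 (0.0682). It was also lost with quantile normalization (-0.26, adjusted p = 0.119) and in the fit of the 6 libraries compared (adjusted p = 0.0583), and the values stand on 15 to 58 reads per library.

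Of the most abundant members, MAGEA6 was called lower in shG9a (0.789 of the pLKO mean) and shsuz12 (0.737), and MAGEA3 in shsuz12 (0.784). MAGEA6 (minus strand) had 27.1, 26.1 and 26.9 RPKM in pLKO, 25.4, 24.7 and 23.7 in shPALI1, 20.4, 23.1 and 19.7 in shG9a, 21.4, 23.0 and 26.5 in shJarid2, and 19.1, 21.2 and 18.7 in shsuz12. All libraries of shPALI1, shG9a and shsuz12 lay below those of pLKO. The log2 differences were -0.33 in shG9a (adjusted p = 0.0045) and -0.42 in shsuz12 (SE 0.08, adjusted p = 0.00054). In shPALI1 the difference of -0.12 was not called (adjusted p = 0.27). MAGEA3 (plus strand) had 41.4, 43.4 and 37.7 RPKM in pLKO, 39.9, 41.7 and 34.7 in shPALI1, 34.9, 39.3 and 37.9 in shG9a, 32.7, 38.3 and 43.5 in shJarid2, and 31.3, 33.9 and 30.8 in shsuz12. Only the shsuz12 libraries lay clear of pLKO, at -0.34 (SE 0.10, adjusted p = 0.01). That difference missed the threshold with median ratio scaling (-0.21, adjusted p = 0.0555) and quantile normalization (-0.16, adjusted p = 0.0772). MAGEA3 and MAGEA6, which form a ligase with TRIM28, hold fewer than 50% of their 50-base words alone, so part of what is read as either may be the other.

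MAGEA12 (plus strand) lies between them and had 30.9, 31.1 and 29.2 RPKM in pLKO, 32.1, 29.4 and 26.2 in shPALI1, 32.5, 35.1 and 31.4 in shG9a, 21.7, 24.3 and 31.1 in shJarid2, and 23.8, 26.1 and 26.7 in shsuz12. It passed in no comparison with pLKO in the 15-library fit; the differences were -0.25 in shJarid2 (95% interval -0.48 to -0.02, adjusted p = 0.071) and -0.24 in shsuz12 (-0.48 to -0.01, adjusted p = 0.073). Without replicate 3 of shJarid2, MAGEA12 (-0.39, adjusted p = 0.00147) and MAGEA6 (-0.26, adjusted p = 0.00845) were called lower in shJarid2. With all libraries kept, both were also called lower there with quantile normalization (MAGEA12 -0.33, adjusted p = 0.00333; MAGEA6 -0.26, adjusted p = 0.00466) and TPM (MAGEA12 -0.28, adjusted p = 0.00515; MAGEA6 -0.20, adjusted p = 0.0147). These scalings also called MAGEA12 higher in shG9a (0.21, adjusted p = 0.0466, and 0.23, adjusted p = 0.0185), and the fit of the 6 libraries compared called it lower in shsuz12 (-0.24, adjusted p = 0.0157). Without that library MAGEC2 (1.02), MAGEC1 (0.79), MAGEA10 (0.87), PAGE1 (0.54), GAGE1 (-0.70) and MAGEA8 (-0.41) kept their calls in shJarid2. MAGEA1 (chrX:153179285-153183880, plus strand), the gene through which this class of antigens was discovered, lay between 2.39 and 3.92 RPKM in all 15 libraries, and its 4 differences lay between -0.15 and 0.01 with 95% intervals within -0.40 to 0.27.

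The hairpin groups were next compared with each other, in contrasts that use no pLKO library. Of the 13 tested members, 7 differed between shPALI1 and shG9a (48.2% of all genes), 7 between shPALI1 and shJarid2 (62.3%) and 9 between shPALI1 and shsuz12 (55.9%). Fewer differed among the other 3: 4 between shG9a and shJarid2 (55.8%), 4 between shG9a and shsuz12 (45.6%) and 4 between shJarid2 and shsuz12 (59% of all genes).

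MAGEC2, MAGEC1 and MAGEA10 were lower in shPALI1 than in each of the other hairpin groups. For MAGEC2 the differences were -1.27 against shG9a (adjusted p = 5.1e-06), -0.86 against shJarid2 (0.00012) and -1.49 against shsuz12 (8.6e-07). For MAGEC1 they were -0.34 (adjusted p = 0.0099), -0.37 (0.0043) and -0.46 (0.00098), in the same order. For MAGEA10 they were -0.39 (adjusted p = 0.00086), -0.32 (0.0026) and -0.30 (0.005). MAGEC1 passed the minimum through no shPALI1 library, and MAGEC2 mainly through the other hairpin groups. A difference from shPALI1 was thus built into their being tested. Without any minimum, these calls of MAGEC1 and MAGEC2 remained. Among shG9a, shJarid2 and shsuz12, neither MAGEC1 nor MAGEA10 passed in any pair. Their differences there had 95% intervals within -0.33 to 0.18 for MAGEC1 and within -0.15 to 0.26 for MAGEA10. MAGEC2 was lower in shJarid2 than in shsuz12 (-0.63, adjusted p = 0.0017) and than in shG9a, where the difference of 0.41 (adjusted p = 0.024) was lost without replicate 2 of shG9a (adjusted p = 0.103) or replicate 1 (0.0802) or replicate 2 (0.0888) of shJarid2. That call between shG9a and shJarid2 was also lost with quantile normalization (0.33, adjusted p = 0.0837).

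MAGEA4 differed in all 6 pairs of hairpins. Its order was shPALI1 (10.2 ± 0.78 RPKM), shJarid2 (8.2 ± 0.67), shG9a (6.08 ± 0.64) and shsuz12 (4.01 ± 0.29; SD, n = 3). Neighbours in that order differed by 0.29 (adjusted p = 0.009), 0.38 (0.0016) and 0.50 (0.00027), and shPALI1 exceeded shsuz12 by 1.16 (SE 0.08, adjusted p = 5.8e-08). PAGE1 passed in none of the 6, with differences of -0.29 to 0.10 and 95% intervals within -0.71 to 0.52, which leaves room for sizeable differences.

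MAGEA8 was higher in shPALI1 (0.68, adjusted p = 0.00035) and in shG9a (0.58, adjusted p = 0.0017) than in shJarid2. GAGE1 was higher in shPALI1 than in shG9a (0.63, adjusted p = 0.001) and shJarid2 (0.49, adjusted p = 0.0046). No shJarid2 library of MAGEA8 and no shG9a library of GAGE1 reached the minimum, so a difference was built into these tests too. Without any minimum, these calls of MAGEA8 and GAGE1 remained. MAGEA12 was higher in shG9a than in shJarid2 and in shsuz12, by 0.36 in both (adjusted p = 0.011 and 0.015). The first was lost without replicate 1 of shJarid2 (adjusted p = 0.0556) and in the fit of the 6 libraries compared (0.0595). The second was lost without replicate 2 of shG9a (0.0602) or replicate 1 of shsuz12 (0.0594).

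The 2 tested members that match by name alone are described for completeness. CTAGE5, which acts in the export of large cargo from the endoplasmic reticulum, was at 5.75 ± 0.87 RPKM in pLKO and 2.8 ± 0.34 in shsuz12 (SD, n = 3; log2 difference -0.82, SE 0.10, adjusted p = 6.5e-06), and was also lower in shsuz12 than in each other hairpin group, by 0.84 to 1.05. It passed in no other comparison. SSX2IP was at 17.6 ± 1.1 RPKM in pLKO and 12.6 ± 0.82 in shsuz12 (-0.45, SE 0.11, adjusted p = 0.0031). Its calls in shG9a (-0.29, adjusted p = 0.046) and shJarid2 (-0.31, adjusted p = 0.028) did not survive leaving out single libraries, in shG9a any 1 of the 6 (adjusted p = 0.054 to 0.144), and with TPM its call in shsuz12 was lost too.

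Of the members under the minimum, 30 were above 0 in at least 1 library, 23 without the CTAGE genes. Of those 23, MAGEB6, CTAG2, SSX1, XAGE5 and PAGE4 had a mean of at least 0.2 RPKM in some group. The other 18 never exceeded 0.373 RPKM, the highest value of GAGE10. Of the CTAGE genes under the minimum, the pseudogene CTAGE7P also had such a mean. It stood at 0.659 ± 0.055 RPKM in pLKO, 0.725 ± 0.22 in shPALI1 and 0.871 ± 0.33 in shG9a. In shJarid2 it stood at 0.235 ± 0.049 and in shsuz12 at 0.788 ± 0.091 (SD, n = 3), on 7 to 43 reads per library. In a limma fit without any minimum, CTAGE7P was lower in shJarid2 than in pLKO (-0.43, adjusted p = 0.017) and than in each other hairpin group. For these low genes the read numbers recovered from the 1-read step show what the values rest on, and no such gene was tested in the 12715-gene fit. MAGEB6 was named through its means in the hairpin groups, so a difference from pLKO was built into its being named.

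MAGEB6, which lies on the X chromosome (chrX:26192440-26195646) among other MAGEB genes, had 0, 9 and 7 reads in pLKO, 7, 6 and 13 in shPALI1, 18, 13 and 11 in shG9a, 26, 21 and 16 in shJarid2, and 28, 14 and 9 in shsuz12. The shJarid2 libraries had the highest RPKM on average, 0.745 ± 0.092 against 0.199 ± 0.17 in pLKO (SD, n = 3). Because of how MAGEB6 was named, no test of its differences from pLKO is given. XAGE5 had no read in pLKO, 2, 0 and 1 in shPALI1, 0, 1 and 0 in shG9a, 0, 0 and 1 in shJarid2, and 4, 2 and 2 in shsuz12, the 1 group with reads in all 3 libraries; it was named for its mean in shsuz12, so no test of that difference is given.

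SSX1, the fusion partner in many synovial sarcomas, had 1, 0 and 0 reads in pLKO and 5, 2 and 7 in shJarid2, with 0 to 3 in every other library; it was named for its mean in shJarid2, so no test of that difference is given. CTAG2, which encodes LAGE-1, had 2 to 10 reads in each of the 15 libraries, and PAGE4, a PAGE gene known from normal prostate, had 0 to 3. MAGEA11, known as a coactivator of the androgen receptor, had 2 reads in each pLKO library, 0, 2 and 1 in shPALI1, 6, 5 and 4 in shG9a, 4, 5 and 1 in shJarid2, and 5, 6 and 4 in shsuz12; it lies outside the rule for named genes and was chosen after its values were seen. All of these are a handful of reads per library, at which single reads move the mean.

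**Figure D4:**
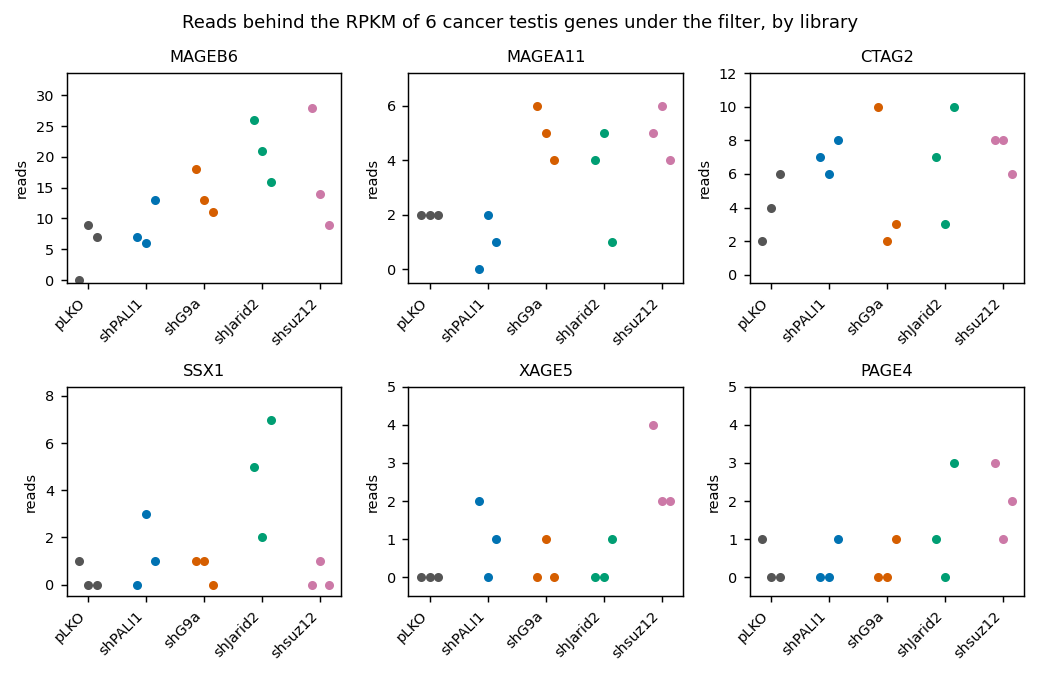
Reads per library (points, from the 1-read step of the RPKM values) for 6 cancer testis genes under the minimum for testing, by group, each panel with its own axis. SSX1 reaches 7 reads in shJarid2, XAGE5 4 reads in shsuz12, and MAGEB6 0 to 9 reads in pLKO and 9 to 28 in shsuz12.

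Related genes outside the families were counted from lists chosen as background. Of 44 other X-linked testis genes, 42 were in the table and 4 passed the minimum (CSAG1, CSAG3, DDX53 and FMR1NB). None was called in shPALI1 (all genes: 16.5% higher, 25.1% lower) or shJarid2 (23.8% and 27.2%). In shG9a 2 were higher and 1 lower (all genes: 18.4% and 24.7%). In shsuz12 1 was higher and 1 lower (all genes: 21.1% and 32.8%). The list medians were -0.043, 0.251, 0.075 and 0.083 in shPALI1, shG9a, shJarid2 and shsuz12. FMR1NB stood at 0.422 ± 0.34 RPKM in pLKO, 1.49 ± 0.39 in shG9a and 1.22 ± 0.14 in shsuz12. It passed the minimum through those 2 hairpin groups alone, so a difference was built in and no test of it is given. FMR1NB is 1 of the 2 genes counted as higher in shG9a and the 1 counted in shsuz12, so those counts share this limit. DDX53, a helicase of the cancer testis class, rose from 1.37 ± 0.30 to 2.85 ± 0.29 in shG9a (0.71, adjusted p = 0.0033; SD, n = 3). CSAG1, from the same stretch as MAGEA12, fell from 21.8 ± 2.5 to 16 ± 1.2 in shsuz12 (-0.42, adjusted p = 0.0091).

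Of 42 germline and testis genes elsewhere, 13 passed the minimum. The counts of higher and lower genes were 2 and 7 in shPALI1 (all genes: 16.5% and 25.1%) and 1 and 4 in shG9a (18.4% and 24.7%). They were 2 and 7 in shJarid2 (23.8% and 27.2%) and 2 and 8 in shsuz12 (21.1% and 32.8%). The medians were -0.304, -0.226, -0.285 and -0.447, beside the all-gene medians given above. Among the lower ones were CEP55, PBK, KIF2C and ATAD2, which dividing cells of any tissue express. PRAME, a tumour antigen of another family, was at 14.1 ± 0.4 RPKM in pLKO, lower in shPALI1 (8.71 ± 0.85; -0.64, adjusted p = 2.1e-05) and higher in shG9a (20.7 ± 0.95; 0.52, adjusted p = 0.00012).

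The type II MAGE genes, which share the MAGE domain but are expressed in many tissues, went in both directions. Of 6 tested, 2 were higher and 2 lower in shPALI1 (all genes: 16.5% and 25.1%). In shG9a 3 were higher and 1 lower (all genes: 18.4% and 24.7%). The counts were 1 and 1 in shJarid2 (23.8% and 27.2%) and 3 and 1 in shsuz12 (21.1% and 32.8%). The medians were -0.121, 0.188, 0.05 and 0.221. MAGED2 fell in shPALI1, from 32 ± 1.7 to 19.7 ± 0.49 RPKM (-0.67, adjusted p = 6.5e-05), and MAGEF1 in shsuz12, from 63.9 ± 4.8 to 37.9 ± 0.81 (-0.73, adjusted p = 1.8e-05). Of 6 tested E3 ligase partners of MAGE proteins none was higher. In shPALI1, shG9a, shJarid2 and shsuz12, 2, 2, 3 and 5 of the 6 were lower (all genes: 25.1%, 24.7%, 27.2% and 32.8%). The medians were -0.027, -0.23, -0.282 and -0.487. TRIM28, the partner of MAGEA3, MAGEA6 and MAGEC2, fell from 151 ± 17 RPKM in pLKO to 107 ± 1.4 in shsuz12 (-0.49, adjusted p = 0.00055) and 113 ± 16 in shJarid2 (-0.42, adjusted p = 0.0019).

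Of 32 tested repressors of germline genes, 4 were higher and 5 lower in shPALI1 (all genes: 16.5% and 25.1%). In shG9a 4 were higher and 13 lower (all genes: 18.4% and 24.7%). The counts were 4 and 11 in shJarid2 (23.8% and 27.2%) and 3 and 13 in shsuz12 (21.1% and 32.8%). The medians were -0.012, -0.196, -0.117 and -0.092. The hairpin targets EHMT2 and SUZ12 are in this list. DNMT1, the maintenance DNA methyltransferase, stood at 34.8 ± 2.8 RPKM in pLKO and was lower in shPALI1 (24.6 ± 0.66; -0.48, adjusted p = 0.00028), shJarid2 (16.5 ± 1.5; -1.03, adjusted p = 1.5e-07) and shsuz12 (18.9 ± 1.1; -0.85, adjusted p = 9.9e-07). In shG9a it was not among the 4 genes of the list with the smallest p, so it is not given there. The same holds for UHRF1 in the groups other than shsuz12. UHRF1, which brings DNMT1 to replicated DNA, fell from 5.14 ± 0.57 to 1.71 ± 0.10 in shsuz12 (-1.18, adjusted p = 1.5e-06; SD, n = 3). Repressors of other kinds were among the smallest p-values too. CBX1 was lower in shJarid2 (-1.72, adjusted p = 7.5e-10) and TFDP1 in shG9a (-0.80, adjusted p = 2.6e-07). HDAC1 was higher in shJarid2 (0.54, adjusted p = 5.3e-06) but lower in shPALI1 (-0.41, adjusted p = 0.00011). E2F6 was higher in shPALI1 (0.38, adjusted p = 0.0016). The part of any of these repressors in the changes of the cancer testis genes was not tested.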

How the data were processed

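RNA-seq libraries were made from total RNA of LNCaP cells, with 15 libraries in 5 groups of 3. STAR and hg38 are the aligner and build that the submitters' processing notes name; how reads were counted, on which annotation and with what rule for multi-mapping reads was not given in the sources used here. RPKM values were deposited by the authors, 1 column per library; 26443 of 26475 names had values. Reads per library (10.56 to 19.36 M) were recovered from the 1-read step of short RNA genes, where 93.2% to 95.5% of values under 50 reads lay within 0.05 of a whole number.

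From these values, log2(RPKM + 1) was fitted with limma 3.58.1 in R 4.3.3 (mean-variance trend, group as the term, 15 libraries), keeping genes with at least 1 RPKM in at least 3 libraries (12715), and p-values were adjusted by Benjamini-Hochberg within a comparison. The script was tested on simulated data. RPKM holds no counts, so no count model was used. Named genes are the members that passed this minimum and those with a mean of at least 0.2 RPKM in any group, plus, of each other list, up to 4 genes with the smallest p per comparison. The members and lists were chosen with earlier results of these data known. Positions are from GENCODE v29 (GRCh38), and 50-base words were compared over its transcripts. Alternatives changed the pseudocount, the minimum, the scaling, the libraries in the fit and the replicate block, and left out each library in turn.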

Additional observations from a re-analysis of the deposited data

How the results depend on the processing

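Of 983 refits of a called difference, 896 kept the call, 87 lost it and 0 changed direction. Of 1057 refits of an uncalled difference, 47 gained a call and 44 changed sign, all with a reported difference of at most 0.14. Counts of members called moved with the minimum. Requiring a mean of at least 3 RPKM, which takes MAGEC1, MAGEC2, GAGE1 and MAGEA8 out of testing, left 2 members higher in each of shG9a, shJarid2 and shsuz12 against pLKO, 1 lower in shJarid2 against pLKO, and 4 called between shPALI1 and shG9a, 3 between shPALI1 and shJarid2 and 2 between shG9a and shJarid2. With no minimum, 1 member was lower in shPALI1 (3171 of 22023 genes) and 5 in shJarid2 against pLKO (3668 of 22023), and 7 differed between shJarid2 and shsuz12. The added calls were of genes under the minimum. In shPALI1 it was MAGEA8-AS1, with 4 reads over the pLKO libraries and 0 in shPALI1. In shJarid2 they were CTAGE7P and SSX5, the latter with 2 reads in pLKO and 0 in shJarid2. Between shJarid2 and shsuz12 they were CTAGE7P, SSX1 and XAGE5. With median ratio scaling 5 members were higher in shPALI1 against pLKO. In a fit of only the 6 libraries compared, 1 member was lower in shJarid2 against pLKO.

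Leaving out 1 library at a time gave 3 to 4 members higher in shPALI1, 3 to 4 in shG9a, 4 to 5 in shJarid2 and 4 in shsuz12, and 0 lower in shPALI1, 3 in shG9a, 1 to 4 in shJarid2 (1 without pLKO replicate 2) and 5 in shsuz12. Between hairpins it gave 5 to 6 (shPALI1 and shG9a), 6 to 7 (shPALI1 and shJarid2), 7 to 9 (shPALI1 and shsuz12), 3 to 4 (shG9a and shJarid2), 3 to 4 (shG9a and shsuz12) and 3 to 5 (shJarid2 and shsuz12). With TPM, the share of higher genes among all called moved from 50% to 38.7% between shPALI1 and shG9a, from 55.3% to 44.4% between shPALI1 and shsuz12, from 48.7% to 62.2% between shG9a and shJarid2 and from 57.3% to 42.8% between shJarid2 and shsuz12 (46.9% with median ratio scaling). The cause of these changes was not tested, apart from the smaller set of genes under a stricter minimum and the genes added without one.

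The replicate numbers were not shown to pair the libraries: in no comparison did all 3 same-numbered pairs deviate together at a correlation over 0.1. Only between shG9a and shsuz12 did each library of the first-named group correlate best with its own number (0.13, 0.12 and 0.03). The libraries of the second-named group were not checked in this way. With the replicate block, 5 members were lower in shsuz12 against pLKO in place of 6, 6 differed between shPALI1 and shG9a in place of 7, 3 between shG9a and shsuz12 in place of 4, and 5 between shJarid2 and shsuz12 in place of 4. The numbers higher against pLKO were 3, 4, 4 and 4 as without it. Low reads limit MAGEC1, MAGEC2, PAGE1, GAGE1 and MAGEA8 and all members under the minimum.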
